A study of Mus musculus with 32 samples.

Results

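Imprinted genes were examined in RNA of sorted fetal germ cells, measured on 32 Mouse Gene 1.0 ST arrays. Of 48 imprinted genes that were listed by name, 43 were read by a probe whose annotation gives that gene alone, among 19938 genes with such a probe. Each of the 43 had a single probe of this kind, so no choice between probes was needed. By the parental allele from which they are transcribed where imprinted, 22 were paternally and 21 maternally expressed genes. Many of the maternally expressed genes, among them Kcnq1, Phlda2 and Atp10a, are imprinted in some tissues only. The same holds for some paternally expressed genes, among them Sfmbt2. Snrpn, Ube3a and Gnas were read only by probes annotated with several genes and were left out. Zrsr1 and Slc22a3 were not analysed here. A probe on this array reads RNA of both parental alleles together, so all values are total RNA of a gene and say nothing of which allele was transcribed.

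The germ cells were EGFP-positive cells sorted by flow cytometry from gonads at 17.5 days post coitum (dpc), and every fetus carried OG2, a GFP transgene driven by the Oct4 promoter. Pregnant G0 dams had been gavaged daily from 12.5 dpc with an endocrine disruptor (ED) in corn oil or with the oil alone. The EDs were BPA (bisphenol A, a plastic monomer with estrogenic activity, 0.2 mg/kg/day), DEHP (a phthalate plasticizer, 750 mg/kg/day) and VZ (vinclozolin, an antiandrogenic fungicide, 100 mg/kg/day). G1R cells came from the fetuses that were exposed in utero (genotype label FVBxOG2). They made up 23 arrays, with BPA females and males, DEHP females and males, VZ females and males, and oil females and males, each of 3 arrays except DEHP females with 2. G2R cells were prospermatogonia of the following generation (genotype label OG2xFVB), whose fathers had been exposed as fetuses and which were not dosed themselves, with 3 arrays each for DEHP, VZ and oil. In all, 11 arrays were of female germ cells (FGCs) and 21 of male germ cells (MGCs). No label says that the arrays of a group came from separate litters, so p-values measure only the spread between these samples. G2R and G1R cells differ in the direction of the cross and, as the study describes it, probably in the time of the array run as well as in generation, and these cannot be told apart. The sort marks cells that express the Oct4 reporter, and the transgene does not separate germ cells from somatic cells that may have passed the gate with them.

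Genomic imprinting leaves a DNA methylation mark on the maternal or the paternal copy of a control region, so that the genes nearby are transcribed mainly from the copy of a single parent. In primordial germ cells these marks are erased in both sexes and are then set anew according to the sex of the germ cell, in prospermatogonia before birth and in oocytes after birth. Many imprinted genes act on fetal growth, with paternally expressed genes often promoting and maternally expressed genes often restraining it, and many lie in clusters that share a control region.

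Promoters of 5 members are shown because these genes carry the sex difference described next: Ampd3 and Igf2r were highest in FGCs relative to MGCs, and Slc38a4, Grb10 and Mest were among the lowest. Mest and Grb10 were added after their values were seen, and Grb10 stands in for Peg10, which had no entry in the promoter table. The sequences are RefSeq windows of 300 bases on GRCm38.p6 around an annotated transcript start, written 5′ to 3′ on the strand of the gene, and where a gene has several listed starts the window with the most CpG dinucleotides is given (for equal numbers, the one that comes first in the RefSeq table). Capitals mark TGCCGC, the core sequence bound by the zinc finger protein ZFP57, or its reverse complement GCGGCA. The Ampd3 window lies at chr7:110768372-110768671 on the plus strand, the Igf2r window at chr17:12769657-12769956 on the minus strand, the Slc38a4 window at chr15:97055907-97056206 on the minus strand, the Grb10 window at chr11:12037371-12037670 on the minus strand and the Mest window at chr6:30737800-30738099 on the plus strand.
Ampd3: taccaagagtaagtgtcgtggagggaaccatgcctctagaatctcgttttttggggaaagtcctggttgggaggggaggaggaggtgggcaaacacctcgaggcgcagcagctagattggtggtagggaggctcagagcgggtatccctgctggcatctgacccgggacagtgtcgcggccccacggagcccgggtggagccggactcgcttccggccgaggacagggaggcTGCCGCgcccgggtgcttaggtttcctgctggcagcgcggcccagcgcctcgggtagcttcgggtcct
Igf2r: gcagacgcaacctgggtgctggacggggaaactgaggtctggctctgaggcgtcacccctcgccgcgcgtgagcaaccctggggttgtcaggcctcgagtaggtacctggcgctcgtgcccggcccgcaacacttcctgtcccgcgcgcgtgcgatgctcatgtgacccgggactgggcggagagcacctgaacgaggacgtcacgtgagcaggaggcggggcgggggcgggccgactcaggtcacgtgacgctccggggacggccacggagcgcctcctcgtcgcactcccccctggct
Slc38a4: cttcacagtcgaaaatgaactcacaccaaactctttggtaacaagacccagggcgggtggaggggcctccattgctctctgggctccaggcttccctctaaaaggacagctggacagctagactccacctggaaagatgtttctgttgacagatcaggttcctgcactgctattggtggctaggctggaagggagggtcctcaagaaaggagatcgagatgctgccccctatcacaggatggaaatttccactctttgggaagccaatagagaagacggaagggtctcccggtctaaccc
Grb10: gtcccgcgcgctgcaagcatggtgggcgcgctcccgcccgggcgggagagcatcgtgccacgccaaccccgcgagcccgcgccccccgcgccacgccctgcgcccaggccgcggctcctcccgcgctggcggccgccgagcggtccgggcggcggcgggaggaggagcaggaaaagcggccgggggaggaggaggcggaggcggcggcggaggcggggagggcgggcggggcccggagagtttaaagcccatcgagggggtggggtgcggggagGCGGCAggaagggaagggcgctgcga
Mest: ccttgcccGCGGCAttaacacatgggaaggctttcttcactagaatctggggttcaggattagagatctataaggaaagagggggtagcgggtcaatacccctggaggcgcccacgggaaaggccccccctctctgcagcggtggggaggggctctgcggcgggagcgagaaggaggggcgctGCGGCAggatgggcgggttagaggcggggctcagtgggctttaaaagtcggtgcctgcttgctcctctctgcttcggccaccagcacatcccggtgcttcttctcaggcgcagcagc

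Of the 43 members, 38 had an entry in the table, with 58 windows in all. TGCCGC was found on either strand in 15 of the 58 windows (25.9%), against 11.6% of all 32851 promoter windows. A longer motif of the factor YY1, known from the Peg3 locus and also searched on both strands, was in none of the 58 windows, against 0.268% of all windows, and the TGCCGC sequence is not part of it. The 15 members' windows with TGCCGC belong to 14 genes. The members' windows held a median of 15 CpG dinucleotides, against 7 in all windows. TGCCGC itself contains a CpG, and the windows compared were not matched for CpG number. The windows of the members that were higher in oil FGCs held a median of 22 CpGs, and those of the members that were lower a median of 13. The 34 CpGs of the Igf2r window and the 5 of the Slc38a4 window show how far single promoters differ. The windows of Peg3 and Usp29 overlap on opposite strands. A match describes the letters of a window and is not evidence of binding.

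Signals are log2 values after robust multichip averaging (RMA), and a difference of 1 is a doubling of signal. The array medians ranged between 7.29 and 7.50 log2. The 95th percentile of the mean signals of 1027 olfactory receptor genes, which these cells are not expected to use, was 6.89 log2 and served as the level of background. Of the 43 members, 39 were above it in at least 1 group. Usp29, Dio3 and Mkrn3 among the paternally expressed genes and Tspan32 among the maternally expressed genes had every group mean below it, and small differences in these genes lie within background signal. The median SD within groups was 0.135 log2 for the members and 0.135 log2 for all genes. Cd81 was the most variable member, with an SD of 0.40 log2 that lay at the 99.7th percentile of all genes. A list of 6 germ cell markers averaged between 10.62 and 11.15 log2 over the arrays, but 2 of them were higher and 2 lower in oil FGCs than in oil MGCs. Ddx4 averaged 11.59 log2 in oil FGCs and 11.62 log2 in oil MGCs, whereas Sycp3, a protein of the meiotic chromosome axis, averaged 12.17 log2 in oil FGCs and 9.20 log2 in oil MGCs. Pou5f1, which codes for OCT4, averaged 7.65 log2 in oil FGCs and 10.83 log2 in oil MGCs. Dnd1, at 6.89 log2 in oil FGCs and 8.35 log2 in oil MGCs, was lower in females as well. Markers of fetal oocytes averaged between 9.64 and 9.82 log2 on the female and between 7.56 and 7.84 log2 on the male arrays, with 4 of 6 (Figla, Nobox, Sycp1 and Lhx8) higher in oil FGCs. The others, the meiotic genes Rec8 (7.06 log2 in oil FGCs, 8.71 log2 in oil MGCs) and Stra8 (5.20 log2 in oil FGCs, 5.58 log2 in oil MGCs, below background), were lower. Markers of prospermatogonia averaged between 7.50 and 7.73 log2 on the female and between 9.34 and 9.72 log2 on the male arrays. This list held 5 genes, of which Piwil4 (7.61 log2 in oil FGCs, 11.31 log2 in oil MGCs) and Dnmt3l (6.09 log2 in oil FGCs, 11.81 log2 in oil MGCs) were lower in females, Tdrd9 (11.03 log2 in oil FGCs, 10.75 log2 in oil MGCs) was higher, and Nanos3 and Nanos2 did not pass the test. Nanos2 was between 6.19 and 6.47 log2 in oil MGCs, below the background level.

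By the number of calls, imprinted genes differed most between the sexes. In oil FGCs against oil MGCs, 24 of the 43 members were lower and 10 were higher (limma, Benjamini-Hochberg adjusted p under 0.05 over all 35556 probes). Over all genes, 32.6% were lower and 30.9% higher. The median log2 difference, females minus males, was -0.31 for the paternally expressed and -0.35 for the maternally expressed genes, against -0.00 for all genes. Among the paternally expressed genes 13 were lower and 4 higher, and among the maternally expressed genes 11 were lower and 6 higher, so both parental classes held more lower than higher genes. The female and male arrays did not overlap for 35 members (81.4%), against 68.6% of all genes.

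The paternally expressed genes with the lowest signal in FGCs relative to MGCs code for proteins of several kinds. Slc38a4, a sodium-coupled transporter of neutral amino acids, had 6.36, 6.42 and 6.58 log2 in oil FGCs, against 10.23, 10.25 and 10.30 log2 in oil MGCs. The female values lay below the background level and far under every male array (fitted log2 difference -3.81, adjusted p = 4e-20 by limma). Since a level under background is only a bound, the gene is given as at least 10.3-fold lower in females, the male mean against the background level, and the same is done below for other genes with a group mean under it. Peg10, a gene derived from a retrotransposon and needed for the placenta, had 8.18, 8.71 and 7.92 log2 in oil FGCs, against 11.90, 11.67 and 11.86 log2 in oil MGCs. It was 11.6-fold lower in females, and the groups were separated by more than the whole range within either of them (log2 difference -3.54, SE 0.18). Mest, a protein with an alpha/beta hydrolase fold, had 7.59, 7.45 and 7.31 log2 in oil FGCs, against 10.07, 10.05 and 10.29 log2 in oil MGCs. The groups did not overlap and the log2 difference was -2.69 (SE 0.20). Sfmbt2, a Polycomb group protein, had 8.07, 8.36 and 8.35 log2 in oil FGCs, against 10.58, 10.57 and 10.59 log2 in oil MGCs. The male arrays were almost equal and stood above all female arrays (log2 difference -2.32, SE 0.09). Sgce, epsilon-sarcoglycan, which shares a promoter region with Peg10, had 6.75, 6.59 and 6.48 log2 in oil FGCs, against 8.70, 9.04 and 8.87 log2 in oil MGCs. Its female signal was below background on every array, and it was at least 3.95-fold lower in females (fitted log2 difference -2.26).

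**Figure D1:**
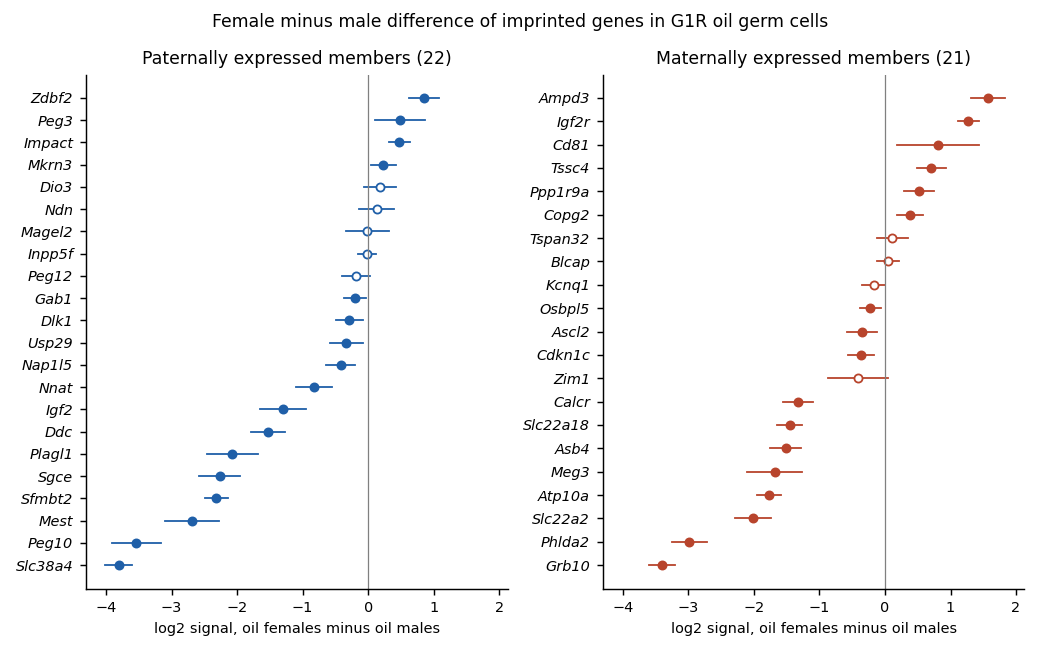
Log2 difference in signal, oil FGCs minus oil MGCs, of each of the 43 imprinted genes, with the 22 paternally expressed genes on the left and the 21 maternally expressed genes on the right. Bars are 95% confidence intervals and filled points have an adjusted p under 0.05. In both panels more filled points lie left of 0 than right of it, with Slc38a4 (-3.81) and Grb10 (-3.40) farthest left and Zdbf2 (0.86) and Ampd3 (1.58) farthest right. The points of Slc38a4 and Ampd3, among others, are fitted differences to a group below the background level.

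Other paternally expressed genes were lower in oil FGCs by smaller amounts. Plagl1, a zinc finger transcription factor, differed by -2.07 log2 and Igf2, the fetal insulin-like growth factor, by -1.30. Ddc, the aromatic amino acid decarboxylase, averaged 6.19 log2 in oil FGCs, below background, and 7.72 log2 in oil MGCs, and was at least 1.77-fold lower in females. Nnat, which codes for the proteolipid neuronatin, differed by -0.83, Dlk1, a ligand related to the Notch ligands, by -0.29 and Gab1, an adaptor of receptor tyrosine kinases, by -0.20. Nap1l5 averaged 6.83 log2 in oil FGCs, just under background, and 7.25 log2 in oil MGCs, and Usp29 was under background in both sexes. Gab1 had 9.11, 9.06 and 9.10 log2 in oil FGCs, against 9.27, 9.29 and 9.32 log2 in oil MGCs, a small gap between groups that were each very tight (adjusted p = 0.0478 by limma). The call for Gab1 was lost whichever of these arrays was left out. Peg12, Ndn, Magel2, Inpp5f and Dio3 did not pass the test, with log2 differences between -0.19 and 0.19.

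The paternally expressed genes that were higher in oil FGCs were Zdbf2, Impact, Peg3 and Mkrn3. Zdbf2, a zinc finger gene that acts on early growth, had 10.94, 11.15 and 10.92 log2 in oil FGCs, against 10.29, 10.03 and 10.11 log2 in oil MGCs. All female arrays were above all male arrays (log2 difference 0.86, SE 0.11, adjusted p = 2.57e-07 by limma). Impact, an inhibitor of the translation kinase GCN2, had 9.01, 9.03 and 9.09 log2 in oil FGCs, against 8.60, 8.64 and 8.46 log2 in oil MGCs. The log2 difference was 0.48 (SE 0.08), with no overlap. Peg3, a zinc finger protein, had 8.79, 9.14 and 8.89 log2 in oil FGCs, against 8.47, 8.26 and 8.64 log2 in oil MGCs. The arrays of the sexes lay close to each other without overlap (log2 difference 0.48, SE 0.18, adjusted p = 0.0275 by limma). Mkrn3, an E3 ubiquitin ligase, had 6.09, 6.09 and 6.21 log2 in oil FGCs, against 5.86, 5.99 and 5.85 log2 in oil MGCs. All its values were under the background level, and Mkrn3 and Peg3 both missed the threshold after cyclic loess normalization.

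Among the maternally expressed genes, the lowest in FGCs relative to MGCs was Grb10, an adaptor that restrains insulin and IGF signalling. It had 7.97, 8.29 and 8.31 log2 in oil FGCs, against 11.69, 11.63 and 11.44 log2 in oil MGCs. The gene was 10.5-fold lower in females (log2 difference -3.40, SE 0.10, adjusted p = 1.9e-19 by limma). Phlda2, a pleckstrin homology domain protein that limits placental growth, had 6.94, 7.13 and 7.12 log2 in oil FGCs, against 9.86, 10.11 and 10.18 log2 in oil MGCs. It was close to background in females and 7.91-fold lower there (log2 difference -2.98, SE 0.13). Slc22a2, an organic cation transporter, had 6.89, 6.92 and 7.05 log2 in oil FGCs, against 8.77, 9.17 and 8.96 log2 in oil MGCs. The female arrays again lay at about background, below every male array (log2 difference -2.01, SE 0.13). Atp10a, a phospholipid flippase, had 6.99, 7.33 and 7.38 log2 in oil FGCs, against 8.98 to 9.02 log2 on the 3 oil MGC arrays. The log2 difference was -1.77 (SE 0.09), with no overlap. Meg3, a long noncoding RNA, had 7.37, 7.61 and 7.45 log2 in oil FGCs, against 9.31, 8.91 and 9.27 log2 in oil MGCs. The sexes were again fully separated (log2 difference -1.68, SE 0.20).

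The transporter gene Slc22a18 was also lower in oil FGCs (log2 difference -1.45). Asb4, an ankyrin repeat protein, averaged 6.53 log2 in oil FGCs, below background, and 8.04 log2 in oil MGCs, and was at least 2.23-fold lower. Calcr, the calcitonin receptor, averaged 6.63 log2 in oil FGCs, below background too, and 7.95 log2 in oil MGCs, and was at least 2.08-fold lower. Cdkn1c, which codes for the cyclin-dependent kinase inhibitor p57, differed by -0.37 log2, the transcription factor gene Ascl2 by -0.36 and the lipid transfer gene Osbpl5 by -0.23. Zim1, Kcnq1, Blcap and Tspan32 did not pass the test, with log2 differences between -0.41 and 0.11. Zim1 had 6.77, 7.24 and 6.91 log2 in oil FGCs, against 7.34, 7.25 and 7.54 log2 in oil MGCs, and its highest female array was next to its lowest male array.

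The maternally expressed genes that were higher in oil FGCs were led by Ampd3, an AMP deaminase, with 8.30, 8.50 and 8.49 log2 in oil FGCs, against 6.95, 6.63 and 6.98 log2 in oil MGCs. The male mean was just under the background level, and the gene was at least 2.91-fold higher in females (fitted log2 difference 1.58, adjusted p = 3.96e-11 by limma). Igf2r, the receptor that clears IGF2 for degradation, had 10.79, 10.86 and 10.87 log2 in oil FGCs, against 9.51, 9.67 and 9.52 log2 in oil MGCs. It was 2.42-fold higher in females (log2 difference 1.27, SE 0.08). Its SD within groups, pooled over all groups, lay at percentile 5.63 of all genes. Cd81, a tetraspanin of the cell surface, had 10.07, 10.35 and 10.29 log2 in oil FGCs, against 9.31, 9.15 and 9.82 log2 in oil MGCs. The third male array lay closest to the females, and the call (log2 difference 0.81, SE 0.30, adjusted p = 0.0258 by limma) was lost after cyclic loess normalization, where the log2 difference was 0.58. Tssc4, a gene of the Kcnq1 domain, had 7.78, 7.77 and 7.86 log2 in oil FGCs, against 7.22, 7.23 and 6.83 log2 in oil MGCs. The sexes did not overlap, with a log2 difference of 0.71 (SE 0.11). Ppp1r9a, which codes for the actin-binding protein neurabin, had 8.03, 8.21 and 8.20 log2 in oil FGCs, against 7.72, 7.62 and 7.56 log2 in oil MGCs. The log2 difference was 0.52 (SE 0.11), and Copg2, a subunit of the coat of Golgi vesicles, followed with 0.38.

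Neighbouring genes of a cluster did not all differ in the same direction. In the Peg10-Sgce domain, Peg10, Sgce, Asb4 and Calcr were lower in oil FGCs and Ppp1r9a was higher. In the Kcnq1 domain, 5 of 9 measured genes were lower (Phlda2, Slc22a18, Cdkn1c, Ascl2 and Osbpl5), 2 were higher (Cd81 and Tssc4), and Kcnq1 and Tspan32 did not pass the test. Igf2r was higher while its neighbour Slc22a2 was lower, and Copg2 was higher while the overlapping gene Mest was lower. Both measured genes of the Grb10 domain, Grb10 and Ddc, were lower. Of the 5 measured genes of the Prader-Willi/Angelman domain only Atp10a (lower) and Mkrn3 (higher) were called. Mest and Copg2 partly overlap in the genome, and the labels do not state whether the probes kept the strands apart.

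The sexes were also compared within each exposure, every time on other arrays. In BPA FGCs against BPA MGCs, 25 members were lower and 9 higher (all genes 32.3% lower and 31.7% higher). In DEHP FGCs against DEHP MGCs, 22 were lower and 9 higher (all genes 30.1% and 31.9%). In VZ FGCs against VZ MGCs, 23 were lower and 9 higher (all genes 31.3% and 33.8%). Across the BPA, DEHP, VZ and oil comparisons, 21 members were lower in FGCs every time, 11 of them paternally and 10 maternally expressed. Among the 21 was Usp29, whose signal was below background in every group. In the same comparisons 7 members were higher every time (Zdbf2, Impact, Igf2r, Ampd3, Tssc4, Copg2 and Ppp1r9a). How many of all genes were called the same way in every comparison was not counted. No member was called in opposite directions in different comparisons. Peg12, Kcnq1, Ndn, Magel2 and Tspan32 were never called.

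**Figure D2:**
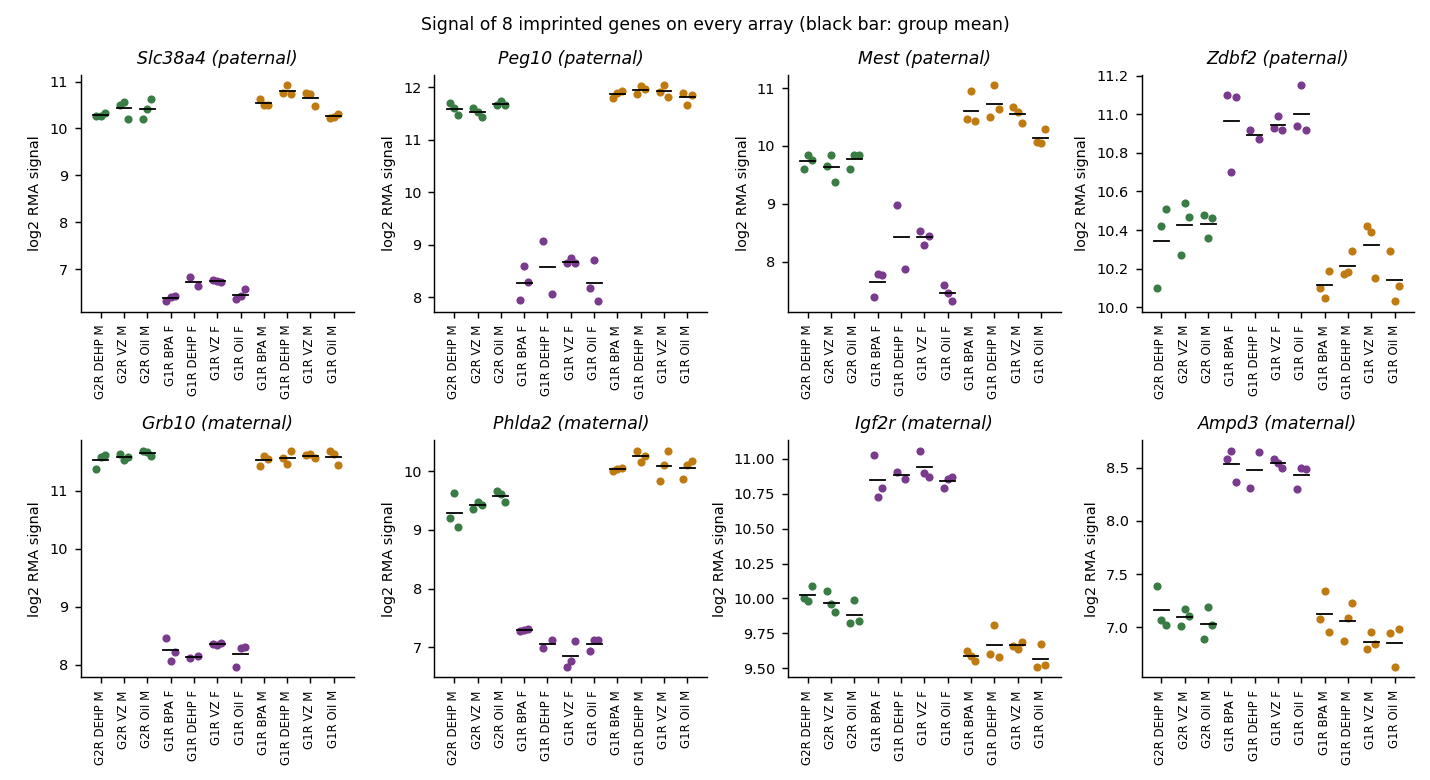
Log2 RMA signal of 8 imprinted genes on each of the 32 arrays (points) with group means (bars), for G2R MGCs in green, G1R FGCs in purple and G1R MGCs in orange, the exposed groups left of their oil group. Slc38a4, Peg10, Mest, Grb10 and Phlda2 are lower in every female array than in every male array, while Zdbf2, Igf2r and Ampd3 are higher in every female array.

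The sizes within each treatment can be set side by side. Slc38a4 was under background in the females of every treatment, and was at least 12.6-fold lower in FGCs with BPA, 15.1-fold with DEHP, 13.6-fold with VZ and 10.3-fold with oil. For Grb10 the log2 difference, females minus males, was -3.27 with BPA, -3.43 with DEHP, -3.25 with VZ and -3.40 with oil. For Igf2r it was 1.26 with BPA, 1.22 with DEHP, 1.28 with VZ and 1.27 with oil, so the spread between treatments was smaller than the SE of any of them (0.08 or 0.09). Mest varied more, with -2.97 for BPA, -2.31 for DEHP, -2.14 for VZ and -2.69 for oil. Cd81, Zim1 and Dio3 were called in single comparisons only, Cd81 in oil (0.81) and the others in BPA. Zim1 had a female mean of 6.72 log2 there, under background, and was at least 1.89-fold lower in FGCs. Dio3 was called higher in BPA FGCs, with means of 6.63 log2 in females and 6.34 log2 in males that both lie within background signal. Whether an exposure's effect differed between the sexes was tested with an interaction term, and no member passed it for any ED, with 6 members for BPA (14.0%, against 4.55% of all genes), 4 for DEHP (9.3%, against 8.45%) and 2 for VZ (4.65%, against 6.6%) at an unadjusted p under 0.05.

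The somatic marker lists all had lower means in oil FGCs than in oil MGCs. The calls below stand beside 32.6% of all genes lower and 30.9% higher in this comparison. For the Sertoli and granulosa lists the share of genes called lower was near that of all genes. Over the 6 genes of the Sertoli cell list the mean signal was between 6.89 and 7.06 log2 in oil FGCs and between 7.35 and 7.76 log2 in oil MGCs, and 2 of 6 were called lower. The stromal list was between 6.99 and 7.08 log2 in oil FGCs and between 7.52 and 7.79 log2 in oil MGCs (6 of 8 lower, 1 higher). The endothelial list was between 6.44 and 6.71 log2 in oil FGCs and between 7.69 and 7.77 log2 in oil MGCs (6 of 6 lower). Of the fetal Leydig cell list 4 of 6 genes were measured, with means between 6.11 and 6.21 log2 in oil FGCs and between 6.71 and 7.34 log2 in oil MGCs (2 of 4 lower), and Cyp17a1 had 6.67, 6.53 and 6.69 log2 in oil FGCs, against 9.39, 8.23 and 9.19 log2 in oil MGCs. The granulosa cell list (between 7.06 and 7.22 log2 in oil FGCs, between 7.42 and 7.46 log2 in oil MGCs) and the blood cell list (between 6.25 and 6.33 log2 in oil FGCs, between 6.87 and 6.95 log2 in oil MGCs) had 2 of 6 and 3 of 5 genes lower. The part of somatic cell RNA in the sex differences of imprinted genes was not tested. In such bulk samples fewer cells of a type and less RNA per cell cannot be told apart.

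Other imprinted genes, from a list of 31 of which 25 were measured, had 16 genes lower and 3 higher in oil FGCs and a median log2 difference of -0.36, where 32.6% of all genes were lower, 30.9% were higher and the median was -0.00. Rian, a noncoding RNA of the Meg3 cluster, averaged 5.42 log2 in oil FGCs, below background, and 7.28 log2 in oil MGCs. Casd1, which lies next to Sgce, differed by -1.39 log2 and Pde4d, a phosphodiesterase, by -1.17. Th, tyrosine hydroxylase, was the most strongly higher of this list (2.02 log2), followed by Trappc9 (0.69) and Commd1 (0.58). The genes that write, keep or remove imprints formed a list of 14, of which 6 were lower and 5 higher. The de novo methylation genes Dnmt3l (below background in females), Dnmt3a (-2.27 log2) and Dnmt3b (-0.36) were lower in oil FGCs, as were the demethylation gene Tet1 (-2.12), the CTCF paralogue Ctcfl (-1.17) and the histone demethylase gene Kdm1b (-0.58). Dppa3 (3.70 log2) and Zfp57 (2.07), which protect imprints in the embryo, Uhrf1 (2.36), which guides maintenance methylation, the insulator gene Ctcf (1.44) and Tet3 (0.77) were higher.

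No imprinted gene passed the test in any comparison of an exposed group with oil. These comparisons asked whether in utero exposure, or exposure of the father as a fetus, changed the RNA level of imprinted genes. The 3 G1R male comparisons share the oil MGC arrays, the 3 female ones share the oil FGC arrays and the G2R ones share the G2R oil arrays. Of all genes, 0.0% were called with BPA, 0.01% with DEHP and 0.00502% with VZ in G1R MGCs, and 0.0% in each of the remaining comparisons, and the count of 0 of 43 members stands beside these shares. At an unadjusted p under 0.05 by limma, 11 members were counted for BPA in G1R MGCs (25.6%, against 7.98% of all genes), 8 for DEHP (18.6%, against 16.1%) and 5 for VZ (11.6%, against 19.3%). In G1R FGCs 2 were counted for BPA (4.65%, against 3.86%), 2 for DEHP (4.65%, against 6.86%) and 8 for VZ (18.6%, against 6.09%), and in G2R MGCs 5 for DEHP (11.6%, against 6.4%) and 2 for VZ (4.65%, against 4.11%). The median 95% confidence interval of a member reached 0.229 log2 to either side, or 0.257 log2 in DEHP FGCs. These intervals are not adjusted for the number of probes, and differences well beyond them did not pass the adjusted test.

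**Figure D3:**
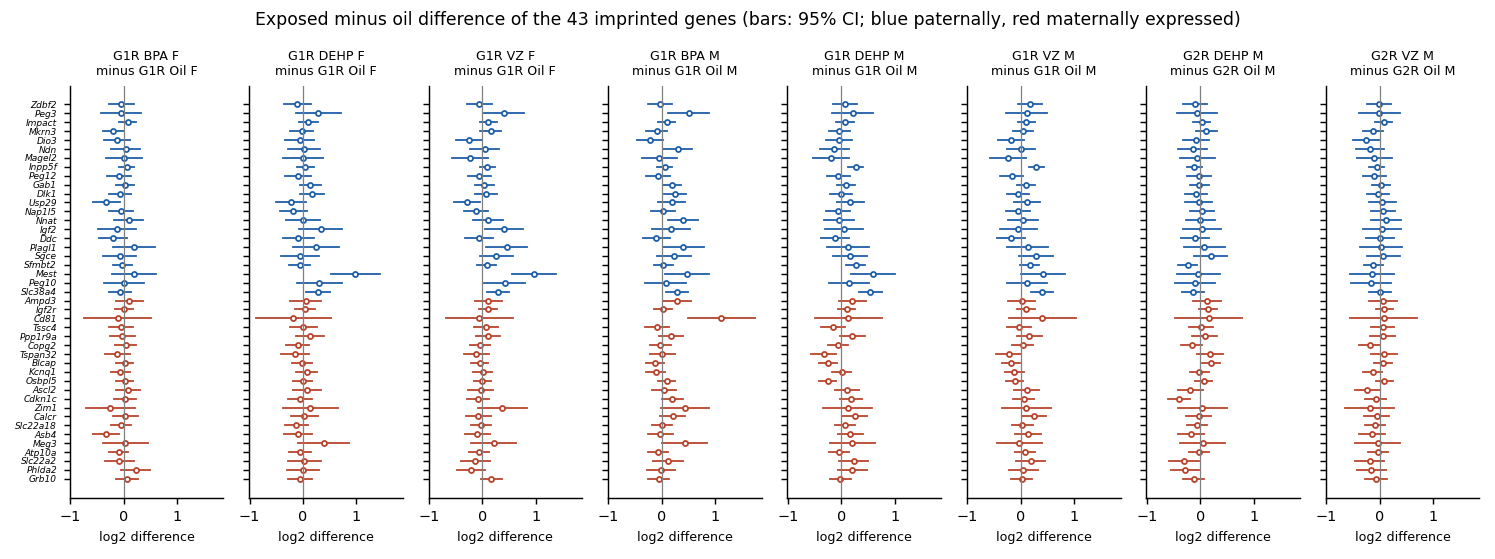
Log2 difference of each of the 43 imprinted genes between an exposed group and oil of the same sex and generation, with 95% confidence intervals (x axis, the same in all 8 panels), paternally expressed genes in blue and maternally expressed genes in red. Most points lie near 0, and the points farthest from it are Cd81 in BPA MGCs (1.11) and Mest in DEHP FGCs (0.98) and VZ FGCs (0.97). No point is filled because no adjusted p was under 0.05.

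In G1R MGCs the member nearest to the threshold was Slc38a4. It had 10.76, 10.92 and 10.73 log2 in DEHP MGCs, against 10.23, 10.25 and 10.30 log2 in oil MGCs. All DEHP arrays lay above all oil arrays, with a log2 difference of 0.54 (SE 0.10, adjusted p = 0.0528 by limma). Over its alternatives the adjusted p lay between 0.0275 and 0.26, with 5 other settings and the fit without the first DEHP array under the threshold. In VZ MGCs Slc38a4 had 10.75, 10.74 and 10.48 log2, also above every oil array (log2 difference 0.40, adjusted p = 0.0847 by limma). In BPA MGCs it had 10.62, 10.50 and 10.51 log2, with a log2 difference of 0.28 (adjusted p = 0.508 by limma). Inpp5f, a phosphoinositide phosphatase, had 9.33, 9.34 and 9.26 log2 in VZ MGCs, against 8.92, 9.11 and 9.02 log2 in oil MGCs. The groups did not overlap (log2 difference 0.29, SE 0.07, adjusted p = 0.0802 by limma). In DEHP MGCs Inpp5f had 9.30, 9.18 and 9.38 log2, with a log2 difference of 0.27 from the same oil arrays (adjusted p = 0.1 by limma). With array quality weights both genes passed the threshold in VZ MGCs, at an adjusted p of 0.0191 for Inpp5f and 0.0255 for Slc38a4 by limma, while over their other settings both reached up to 0.289.

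Osbpl5, an oxysterol-binding protein, had 7.09, 7.27 and 7.15 log2 in DEHP MGCs, against 7.37, 7.43 and 7.47 log2 in oil MGCs. Every DEHP array was below every oil array, with a log2 difference of -0.25 (adjusted p = 0.148 by limma). Blcap, a small membrane protein, had 8.26, 8.18 and 8.55 log2 in VZ MGCs, against 8.50, 8.59 and 8.47 log2 in oil MGCs. The third VZ array lay among the oil arrays, and the log2 difference was -0.19 (adjusted p = 0.209 by limma). Blcap was also under every oil array in DEHP MGCs, at 8.24, 8.27 and 8.31 log2. The second DEHP MGC array, the highest of its group for Slc38a4, had stromal, fetal Leydig and endothelial list means of 8.04, 7.58 and 7.82 log2. The oil MGC arrays reached at most 7.79, 7.34 and 7.77 log2 on these lists. Its Sertoli, granulosa and blood list means were not above those of the oil arrays. The part of somatic cell RNA in the DEHP MGC values was not tested.

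In BPA MGCs the member with the smallest p was Cd81, and its arrays were not alike. It had 10.99, 11.28 and 9.34 log2 in BPA MGCs, against 9.31, 9.15 and 9.82 log2 in oil MGCs. The first and second BPA arrays stood above all oil arrays and the third lay among them (log2 difference 1.11, SE 0.30, adjusted p = 0.31 by limma). Nnat had 8.64, 8.66 and 8.17 log2 in BPA MGCs, against 7.89, 8.28 and 8.11 log2 in oil MGCs, with the same arrays on top (log2 difference 0.40, adjusted p = 0.478 by limma). The first and second BPA male arrays also carried more signal of Sertoli, fetal Leydig and stromal markers. The Sertoli list averaged 8.84, 8.41 and 7.51 log2 on the BPA arrays, against 7.35 to 7.76 log2 on the oil arrays. The fetal Leydig list averaged 8.28, 8.90 and 6.78 log2 on the BPA arrays, against 6.71 to 7.34 log2 on the oil arrays. The stromal list averaged 8.18, 8.88 and 7.58 log2 on the BPA arrays, against 7.52 to 7.79 log2 on the oil arrays. The third BPA array lay within the oil range on all 3 lists. On the first and second BPA arrays the granulosa list averaged 7.65 and 7.61 log2, against 7.42 to 7.46 log2 on the oil arrays. The endothelial list averaged 7.74 and 7.91 log2 there, against 7.69 to 7.77 log2 with oil. The blood list, at 6.86 and 6.94 log2, was not above the oil arrays (6.87 to 6.95 log2).

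**Figure D4:**
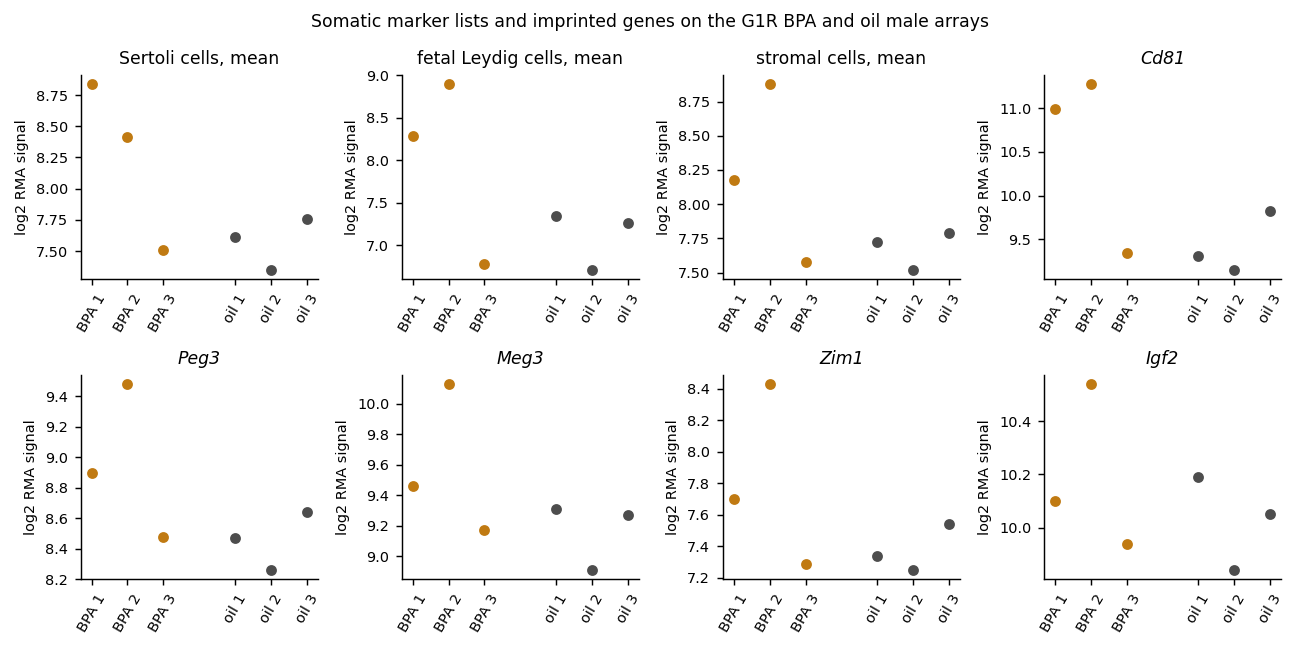
Mean log2 RMA signal of the Sertoli, fetal Leydig and stromal marker lists and signal of Cd81, Peg3, Meg3, Zim1 and Igf2 on the 3 BPA and the 3 oil G1R MGC arrays (points are single arrays). The second BPA array is the highest of the 6 arrays for every gene shown, and the third BPA array lies near or among the oil arrays in all panels.

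The second BPA array was also high for other members. On it Peg3 was at 9.48 log2, Meg3 at 10.13, Zim1 at 8.43, Plagl1 at 10.42, Igf2 at 10.54, Mest at 10.95 and Dlk1 at 11.41, each the highest value of the BPA and oil MGC arrays. Of the 11 members with an unadjusted p under 0.05 in this comparison, every log2 difference was above 0. When the first and second BPA arrays were left out, a setting chosen after seeing the data, Cd81 differed from oil by -0.09 log2 and no member was called. Without the third BPA array instead, Cd81, Nnat (0.56) and Peg3 (0.74) passed the threshold. A comparison of BPA FGCs with BPA MGCs without the first and second BPA male arrays leaves a single male array, so its calls are not given. The part of somatic cell RNA in the BPA values was not tested.

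In G1R FGCs the largest values belonged to Mest. It had 8.98 and 7.87 log2 in DEHP FGCs, against 7.59, 7.45 and 7.31 log2 in oil FGCs. Both DEHP arrays were above the oil arrays but differed from each other by more than the oil arrays did (log2 difference 0.98, SE 0.22, adjusted p = 0.352 by limma). In VZ FGCs Mest had 8.53, 8.28 and 8.45 log2, all above the oil arrays (log2 difference 0.97, SE 0.20, adjusted p = 0.407 by limma). In BPA FGCs it had 7.38, 7.78 and 7.77 log2, which overlapped oil (log2 difference 0.20). The granulosa list averaged 7.25 to 7.30 log2 in VZ FGCs and 7.32 and 7.10 log2 in DEHP FGCs, against 7.06 to 7.22 log2 in oil FGCs. The Sertoli list in VZ FGCs (6.97 to 7.02 log2) lay within the range of oil FGCs (6.89 to 7.06 log2). The part of somatic cell RNA in the Mest values was not tested. Without the first DEHP array the log2 difference of Mest was 0.42 (adjusted p = 0.999 by limma). Without the second DEHP array the call for Mest in DEHP FGCs was made, with a log2 difference of 1.53 (adjusted p = 0.004 by limma, the lowest of its alternatives), and the single array left in either fit is assumed to vary like the other groups. Slc38a4 had 6.83 and 6.63 log2 in DEHP FGCs, against 6.36, 6.42 and 6.58 log2 in oil FGCs, at or below background throughout. Its log2 difference was 0.28 with DEHP (adjusted p = 0.759) and 0.29 with VZ (adjusted p = 0.744 by limma), where the VZ arrays were at 6.76, 6.74 and 6.72 log2. Igf2 had 9.49 and 8.61 log2 in DEHP FGCs, against 8.48, 9.06 and 8.64 log2 in oil FGCs. The first DEHP array alone was high, and without it the log2 difference of 0.33 became -0.11. Plagl1 had 7.95, 7.80 and 7.88 log2 in VZ FGCs, against 7.36, 7.16 and 7.76 log2 in oil FGCs. The groups did not overlap, with a log2 difference of 0.45 (adjusted p = 0.798 by limma).

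In BPA FGCs the members with the smallest p were Asb4, Usp29 and Mkrn3. Asb4 had 6.23, 6.09 and 6.27 log2 in BPA FGCs, against 6.65, 6.61 and 6.32 log2 in oil FGCs. The groups did not overlap (log2 difference -0.33, adjusted p = 0.865 by limma). Usp29 had 5.95, 5.52 and 5.45 log2 in BPA FGCs, against 5.80, 6.08 and 6.02 log2 in oil FGCs (log2 difference -0.33, adjusted p = 0.943 by limma). Mkrn3 had 5.80, 5.82 and 6.20 log2 in BPA FGCs, against 6.09, 6.09 and 6.21 log2 in oil FGCs (log2 difference -0.19). All values of these 3 genes in FGCs were below the background level.

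In G2R MGCs, whose own generation was not dosed, the smallest p in the DEHP line belonged to Cdkn1c, the gene of the cell cycle inhibitor p57. It had 8.77, 9.06 and 8.65 log2 in G2R DEHP MGCs, against 9.19, 9.14 and 9.35 log2 in G2R oil MGCs. The DEHP arrays lay below the oil arrays, the second of them only just (log2 difference -0.40, SE 0.10, adjusted p = 0.424 by limma), and the gene was called when that array was left out. Sfmbt2 had 10.37, 10.59 and 10.48 log2 in G2R DEHP MGCs, against 10.67, 10.72 and 10.76 log2 in G2R oil MGCs, without overlap (log2 difference -0.23, adjusted p = 0.662 by limma). Blcap had 8.58, 8.48 and 8.58 log2 in G2R DEHP MGCs, against 8.36, 8.34 and 8.34 log2 in G2R oil MGCs. It too did not overlap, with a log2 difference of 0.20 (adjusted p = 0.684 by limma). The second G2R DEHP array was the one with the highest mean of the fetal Leydig list, 9.16 log2, against at most 8.02 log2 in G2R oil MGCs. The part of Leydig cell RNA in the DEHP line values was not tested.

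In the VZ line, Dio3, which codes for a deiodinase that inactivates thyroid hormone, had 6.51, 6.64 and 6.60 log2 in G2R VZ MGCs, against 7.02, 6.76 and 6.75 log2 in G2R oil MGCs. These values straddled the background level (log2 difference -0.26, adjusted p = 0.913 by limma). Ascl2 had 7.03, 6.95 and 7.17 log2 in G2R VZ MGCs, against 7.20, 7.33 and 7.33 log2 in G2R oil MGCs (log2 difference -0.23, adjusted p = 0.919 by limma). Copg2 had 11.07, 11.06 and 11.22 log2 in G2R VZ MGCs, against 11.25, 11.32 and 11.35 log2 in G2R oil MGCs. The groups of Dio3, Ascl2 and Copg2 did not overlap, in a comparison where the same held for 10.4% of all genes. Mest and Slc38a4 differed from G2R oil by -0.03 and -0.13 log2 in the DEHP line and by -0.14 and 0.01 log2 in the VZ line.

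The generations differed in a few imprinted genes. In G2R oil MGCs against G1R oil MGCs, 2 members were higher and 3 lower (all genes 5.95% higher and 4.87% lower), and the rest did not pass the test. In the DEHP groups 4 members were higher and 8 lower (all genes 7.4% and 8.08%), and in the VZ groups 2 were higher and 7 lower (all genes 2.81% and 5.16%). Impact and Igf2r were higher and Phlda2, Cdkn1c and Slc22a18 lower in all 3 comparisons, which share no arrays, and 29 members were never called. How many of all genes were called the same way in all 3 was not counted. The 3 genes that were lower every time are maternally expressed genes of the Kcnq1 domain, of whose 9 measured genes 3 were lower with DEHP, 4 with VZ and 3 with oil.

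Impact had 8.81, 8.92 and 8.89 log2 in G2R oil MGCs, against 8.60, 8.64 and 8.46 log2 in G1R oil MGCs. The arrays of the generations did not overlap (log2 difference 0.31, SE 0.08, adjusted p = 0.0153 by limma). Igf2r had 9.82, 9.99 and 9.84 log2 in G2R oil MGCs, against 9.51, 9.67 and 9.52 log2 in G1R oil MGCs, again without overlap (log2 difference 0.31, adjusted p = 0.0163 by limma). Phlda2 had 9.66, 9.61 and 9.47 log2 in G2R oil MGCs, against 9.86, 10.11 and 10.18 log2 in G1R oil MGCs. All G2R arrays were below all G1R arrays (log2 difference -0.47, SE 0.13, adjusted p = 0.0226 by limma). Cdkn1c had 9.19, 9.14 and 9.35 log2 in G2R oil MGCs, against 9.47, 9.69 and 9.50 log2 in G1R oil MGCs (log2 difference -0.32, adjusted p = 0.0351 by limma). Slc22a18 had 8.40, 8.68 and 8.54 log2 in G2R oil MGCs, against 8.76, 8.89 and 8.90 log2 in G1R oil MGCs (log2 difference -0.31, adjusted p = 0.033 by limma). None of these 5 calls in oil held every time a single array was left out (the count was then between 0 and 3), and none was made when only the oil arrays of both generations were fitted.

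Some imprinted genes, chosen after their values were seen, had larger log2 differences between the generations in the exposed groups than in oil. No member passed the interaction test of this contrast, given below. Cdkn1c had 8.77, 9.06 and 8.65 log2 in G2R DEHP MGCs, against 9.77, 9.77 and 9.65 log2 in G1R DEHP MGCs. The log2 difference was -0.90 (adjusted p = 1.61e-06 by limma), and in the VZ groups it was -0.45. Phlda2 differed by -0.96 log2 in the DEHP and by -0.68 log2 in the VZ groups, and Slc22a2 by -0.91 and -0.75 log2. Mest had 9.60, 9.85 and 9.75 log2 in G2R DEHP MGCs, against 10.50, 11.05 and 10.64 log2 in G1R DEHP MGCs. It was 2.0-fold lower in the G2R cells (SE 0.20 log2, adjusted p = 0.00152 by limma). In the VZ groups the log2 difference of Mest was -0.93, and in the oil groups it was -0.37 and did not pass the test. Slc38a4 (-0.51 log2), Sfmbt2 (-0.37) and Inpp5f (-0.21) were lower and Blcap (0.28) and Mkrn3 (0.30, within background signal) higher in the DEHP groups, and Ndn (-0.50) and Ascl2 (-0.37) were lower in the VZ groups.

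**Figure D5:**
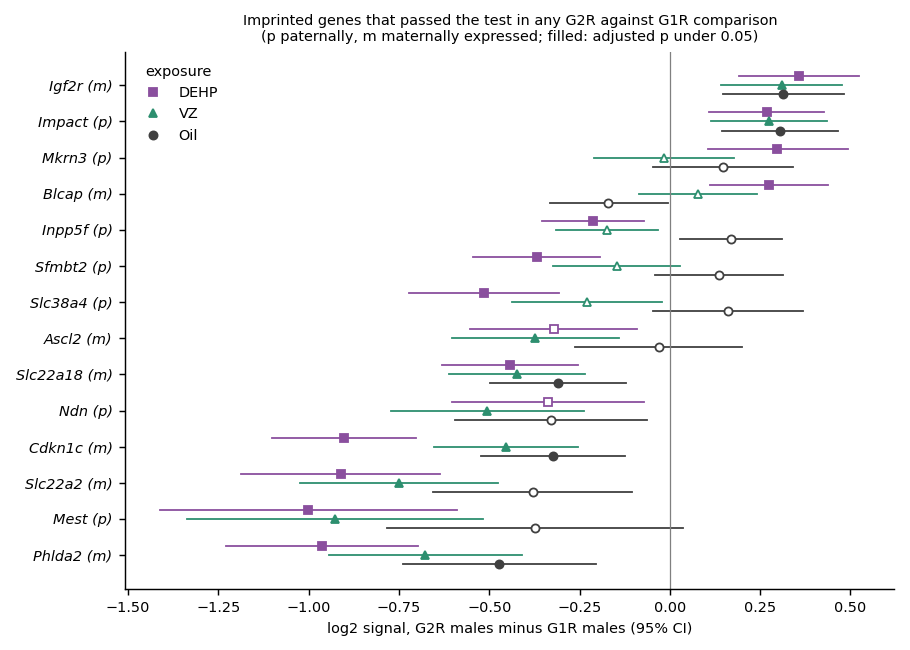
Log2 difference, G2R minus G1R MGCs, of the imprinted genes called in at least 1 comparison, with 95% confidence intervals, for DEHP (squares), VZ (triangles) and oil (circles), filled where the adjusted p was under 0.05. Igf2r and Impact lie right of 0 and Phlda2, Cdkn1c and Slc22a18 left of it with all 3 treatments, and Mest lies far left with DEHP (2.0-fold lower) and VZ (-0.93).

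Whether an exposure acted differently in the generations was tested with an interaction term, the difference between exposed and oil in G2R minus that in G1R. No member passed it (0 of 43), while 11 members for DEHP (25.6%, against 14.6% of all genes) and 5 for VZ (11.6%, against 16.8%) had an unadjusted p under 0.05. The smallest adjusted p was 0.0999, for Slc38a4 with DEHP, where the difference of differences was -0.68 log2. Without the second G2R DEHP array, 7 members passed: Slc38a4, Sfmbt2, Blcap, Inpp5f, Tspan32, Cdkn1c and Phlda2. Tspan32 was below background in every group. How many of all genes passed in that fit was not counted.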

How the data were processed

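Total RNA of sorted germ cells was hybridised to 32 Mouse Gene 1.0 ST arrays in 11 groups. The deposited values are log2 signals that the authors made with RMA in Partek Genomics Suite (versions not given in the sources used here), with 35556 probes and values between 2.588 and 14.82. RMA draws all arrays to 1 distribution, so a shift of total RNA per cell cannot be seen, and the number of arrays limits the precision. Probes were named from the platform annotation, only where it gives a single gene symbol. Groups came from the sample titles. The log2 values were fitted as group means over all 32 arrays with limma 3.58.1 (R 4.3.3), moderated by eBayes on 21 residual degrees of freedom, and p-values were adjusted by Benjamini-Hochberg over all probes (threshold 0.05). The fit was tested on simulated data. Summaries used Python 3.11.15 and plots matplotlib 3.10.9. The highest correlation between 2 arrays was 0.993, so no array was an exact copy of another. Whether any arrays read the same RNA cannot be told from this value.

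Values by array are given for the 5 members with the highest and the 5 with the lowest log2 difference among those called between the sexes in oil, in each parental class, for the 3 members with the smallest p in each comparison with oil, and for the members called between the generations in oil. Values of other members were chosen after they were seen. The members, the marker lists and the other gene lists were chosen with earlier results of these data known. Alternatives were an unmoderated contrast, a fit of only the groups compared, only probes above 6.7 log2, only single-gene probes, cyclic loess, array quality weights, the replicate block, a change of at least 1.5-fold, and each array left out in turn. A fit without the first and second BPA male arrays was added after seeing the data. Replicate numbers do not mark a shared litter or day in the labels.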

Additional observations from a re-analysis of the deposited data

Results flagged for a closer look

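The following imprinted genes had arrays that all moved one way from oil in one sex or generation and all the opposite way in the other, and in each case the difference itself was tested with the interaction term and did not pass. Usp29, whose signal was below background, differed from oil by 0.16 log2 in DEHP MGCs and by -0.22 log2 in DEHP FGCs (adjusted p of the interaction 0.662 by limma). Inpp5f differed from oil by -0.11 log2 in G2R DEHP MGCs and by 0.27 log2 in G1R DEHP MGCs (0.128). Sfmbt2 differed by -0.23 log2 in G2R DEHP MGCs and by 0.27 log2 in G1R DEHP MGCs (0.117), and with VZ by -0.12 log2 in G2R and by 0.16 log2 in G1R MGCs (0.254). Blcap differed by 0.20 log2 in G2R DEHP MGCs and by -0.25 log2 in G1R DEHP MGCs (0.125). Such opposite moves were found between G2R and G1R for 3 of 43 members with DEHP (6.98%, against 1.53% of all genes) and for 1 with VZ (2.33%, against 2.47%), and between the sexes for 1 with DEHP (2.33%, against 1.83%) and for 0 with BPA or VZ (against 0.281% and 0.627%).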

How the results depend on the processing

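Counts of called imprinted genes stayed within 1.5 times the reported count in 124 cases and moved by more in 13, counting each comparison under each setting other than single arrays left out. Of the 34 calls between oil FGCs and oil MGCs, 22 were at least 1.5-fold. In DEHP MGCs against oil the count was 1 in place of 0 with the unmoderated contrast, without dim probes, with single-gene probes, with cyclic loess and with array weights, and in VZ MGCs it was 2 in place of 0 with array weights. Between G2R and G1R, the 12 calls for DEHP became 5 with only the arrays compared and 4 at 1.5-fold, the 9 for VZ became 2 and 3, and the 5 for oil became 0 and 0. Fitting only the arrays compared leaves fewer residual degrees of freedom. The cause of the other changes was not tested. Without the first and second BPA male arrays, a setting chosen after seeing the data, Cd81 differed from oil MGCs by -0.09 log2 in place of 1.11, and the single array left is assumed to vary like the other groups.

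Leaving out single arrays gave 29 to 31 calls between the sexes in oil, 30 to 34 in BPA, 28 to 31 in DEHP and 31 to 33 in VZ, and 26 of the 34 calls in oil held every time (lost at least once were Ascl2, Cd81, Dlk1, Gab1, Mkrn3, Osbpl5, Peg3 and Usp29). Against oil it gave 0 to 3 calls for BPA MGCs (3 without the third BPA array), 0 to 1 for DEHP MGCs (1 without the first DEHP array), 0 to 1 for DEHP FGCs (1 without the second DEHP array, which leaves 1) and 0 to 1 for G2R DEHP MGCs (1 without the second), and 0 each time for the others. Between the generations it gave 9 to 12 calls for DEHP, 5 to 8 for VZ (5 without the first G1R or the second G2R VZ array) and 0 to 3 for oil (0 without the third G1R oil array, at most 3 without any other). The interaction of sex and treatment gave 0 to 1 (Cd81, without the third BPA male array) and that of generation and treatment 0 to 7 (7 without the second G2R DEHP array). How many of all genes were called in the fits with an array left out was not counted. Igf2 in DEHP FGCs differed from oil by -0.11 log2 without the first and by 0.77 log2 without the second DEHP array. Of the sex calls in oil, Gab1 held in 0 of the 6 fits with an array left out, Mkrn3 in 1, Cd81 in 2 and Peg3 in 3.

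With the replicate number as a block (replicate block), the sex comparisons gave 34 calls for BPA, 31 for DEHP, 32 for VZ and 32 for oil, the comparisons with oil 0, the generations 12 for DEHP, 9 for VZ and 5 for oil, and the interactions 0. Correlations of same-numbered arrays, taken on deviations from their group means, lay between -0.354 and 0.131. With groups of 2 or 3 arrays, such deviations cannot tell whether same-numbered arrays shared a litter or a day. Of the named genes' differences, 455 kept their direction and side of the threshold under other settings, 40 no longer passed, 7 newly passed and 1 changed sign. A second probe per gene could not be tried, since each member has 1.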

Other observations

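The lists of further imprinted genes and of imprint regulators were also set against exposure and generation. Against oil, 0 genes of either list were called by limma, whichever ED, sex or generation was tested. In G2R oil MGCs against G1R oil MGCs, Casd1 (0.27 log2) was higher and Klf14 (-0.30 log2), a Krüppel-like factor, and Rtl1, a retrotransposon-derived gene of the Dlk1-Meg3 cluster, were lower, the last with means of 6.37 log2 in G2R and 6.81 log2 in G1R oil MGCs that lie within background signal, while 22 of the 25 genes measured did not pass the test. Of the regulators Ctcf alone passed in this comparison (0.56 log2 higher, adjusted p = 0.00157 by limma).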
